A study of Mus musculus with 4 samples.

Results

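Small nucleolar RNAs (snoRNAs), small Cajal body RNAs (scaRNAs) and structural noncoding RNAs were followed across 4 RNA-seq libraries of mouse B16 melanoma, a transplantable tumor line. The members were chosen by symbol alone, as every Snora, Snord or Scarna gene together with Rn45s, Rpph1, Rmrp and Terc. They came to 123 of the 25239 genes in the tables: 36 box H/ACA snoRNAs, 74 box C/D snoRNAs, 9 scaRNAs and 4 structural RNAs. Rn7sk was not analysed here.

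B6 mice carried a subcutaneous B16 tumor on each flank, and every group received CTX into the peritoneum 1 day ahead of ACT (neither abbreviation is spelled out in the labels). Treatment fell on day 7, with harvest 12 days after ACT. The MV left tumor library came from left tumors injected with free MV (the table headers write MYXV, which usually stands for myxoma virus), and the mice also had TRP-1 T cells injected intravenously. The TRP-1MV library came from mice given TRP-1MV cells by vein, which the protocol writes TRP-1 TMV. The Remote tumor library came from right tumors of the MV left tumor group, which were not injected, so both may come from the same mice. The CTX library came from animals without T cells or MV whose left tumors were injected with PBS. The labels state n = 2, but each group had 1 table with 1 column, and pooling is not stated. With 1 library per group there was no test between groups, and intervals below cover counting error only. The protocol also describes mice given only T cells, which were not analysed here.

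Box C/D snoRNAs guide 2'-O-methylation of ribosomal RNA and box H/ACA snoRNAs guide its pseudouridylation, each inside a particle of shared core proteins. scaRNAs guide the same modifications on spliceosomal RNAs in Cajal bodies. In mammals most snoRNAs are cut from introns of host genes, many of which encode ribosomal proteins or are themselves noncoding. Rn45s is the precursor of the large ribosomal RNAs, Rpph1 the RNA of RNase P, which trims the 5' ends of tRNAs, Rmrp the RNA of RNase MRP, which cuts precursor ribosomal RNA, and Terc the template RNA of telomerase. As mature RNAs these carry no long poly(A) tail. The labels give total RNA and standard Illumina library preparation, and whether poly(A) RNA was selected or ribosomal RNA removed is not stated.

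Sequences are shown for the members on which the results turn, as annotated transcripts from GENCODE M21 on the mm10 build. Snord12 (chr2:167065276-167065365, plus strand) lies in Zfas1 and Snord49a (chr11:62603450-62603521, plus strand) in 2410006H16Rik. Capitals mark TGATGA, the C box, and CTGA, the D box, of these C/D snoRNAs.
Snord12: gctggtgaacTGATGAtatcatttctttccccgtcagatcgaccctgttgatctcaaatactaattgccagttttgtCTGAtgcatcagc
Snord49a: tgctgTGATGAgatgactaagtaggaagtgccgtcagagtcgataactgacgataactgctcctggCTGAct
Snora17 (chr2:26639190-26639321) and Snora43 (chr2:26637847-26637985), both on the minus strand, lie in the same noncoding host, Snhg7, and are shown because their reads went opposite ways. Snora65 (chr2:32963291-32963420, plus strand, in Rpl12) and Snora28 (chr12:111540941-111541067, plus strand, in Eif5) had the most reads of all snoRNAs. Capitals mark the ACA near the 3' end of these H/ACA snoRNAs.
Snora17: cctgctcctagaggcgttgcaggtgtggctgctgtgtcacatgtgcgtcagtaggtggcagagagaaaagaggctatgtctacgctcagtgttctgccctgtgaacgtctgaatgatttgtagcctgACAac
Snora43: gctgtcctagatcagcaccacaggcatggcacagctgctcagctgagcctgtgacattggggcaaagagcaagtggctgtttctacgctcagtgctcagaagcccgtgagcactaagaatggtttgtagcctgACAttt
Snora65: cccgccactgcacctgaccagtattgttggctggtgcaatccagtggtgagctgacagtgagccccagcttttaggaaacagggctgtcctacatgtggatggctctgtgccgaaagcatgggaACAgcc
Snora28: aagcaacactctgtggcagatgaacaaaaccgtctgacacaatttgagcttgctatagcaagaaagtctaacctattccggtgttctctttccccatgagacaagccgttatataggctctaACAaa
Rpph1 (319 bases) and Rmrp (281 bases), both on the minus strand, had the largest ratios in MV left tumor against CTX among members past the minimum count. Their last 150 bases are shown (chr14:50807449-50807598 and chr4:43492783-43492932). Capitals mark their final 10 bases, which show that neither ends in a run of A.
Rpph1: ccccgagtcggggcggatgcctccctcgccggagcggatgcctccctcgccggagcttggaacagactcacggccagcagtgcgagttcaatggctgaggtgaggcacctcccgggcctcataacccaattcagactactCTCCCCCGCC
Rmrp: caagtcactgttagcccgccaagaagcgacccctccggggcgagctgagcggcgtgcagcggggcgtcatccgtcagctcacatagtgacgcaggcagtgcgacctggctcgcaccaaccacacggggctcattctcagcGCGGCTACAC
Read on the RNA's own strand, CTGA stood in the last 20 bases of 72 of the 74 C/D snoRNAs, against 4 of the 36 H/ACA snoRNAs, and TGATGA in the first 20 bases of 46 and of 0. ACA stood in the last 8 bases of 34 of the 36 H/ACA snoRNAs, against 7 of the 74 C/D snoRNAs. The longest run of A had a median of 3 bases over the 119 snoRNAs and scaRNAs and reached 8 in only 1 of them.

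Library totals were 12375526 counts in MV left tumor, 14802809 in TRP-1MV, 21790759 in Remote tumor and 20811605 in CTX. Counts were scaled with TMM factors to CPM, the usual unit of reads relative to library size. Calls of higher or lower required a ratio of 2 or more and a 95% interval that excluded 1, and were made for the 13357 genes averaging 10 or more reads over the 4 libraries. Tumor makeup differed along the same split of libraries. All 8 melanocyte markers were lower in MV left tumor and in TRP-1MV than in CTX, with summed levels of 6030, 5642, 26083 and 25626 CPM in MV left tumor, TRP-1MV, Remote tumor and CTX. All 7 T cell markers were higher in both, with sums of 178, 175, 9.40 and 9.28 CPM in the same order, as were all 4 B cell markers, 4 of 6 macrophage markers and 3 of 5 neutrophil markers. Keratinocyte markers summed to at most 16 reads in any library and erythroid markers to at most 8, although the tissue label reads skin. Skeletal muscle markers summed to 11.0, 10.4, 8.74 and 10.5 CPM in MV left tumor, TRP-1MV, Remote tumor and CTX. Of the 15 housekeeping genes used below as another scale, 6 were lower in MV left tumor than in CTX and 0 higher. Over all genes compared, 11.1% were lower and 18.1% higher in MV left tumor against CTX. In TRP-1MV against CTX these shares were 11.7% and 18.5%. They stand beside the marker counts above as well. The part of tumor makeup in the values below was not tested, and in bulk tumors fewer cells of a type and less RNA per cell cannot be told apart.

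Rn45s and the catalytic RNAs Rpph1 and Rmrp were far higher in MV left tumor and TRP-1MV than in Remote tumor and CTX, while the 119 snoRNAs and scaRNAs together were nearly level (the plot of levels in each library). Rn45s had 120108 reads in MV left tumor, 145569 in TRP-1MV, 33489 in Remote tumor and 27344 in CTX. That is 0.971%, 0.983%, 0.154% and 0.131% of all counts. The precursor holds the sequences of the mature ribosomal RNAs, so these counts cannot tell reads of precursor and mature RNA apart. MV left tumor and TRP-1MV stood together, well above Remote tumor and CTX. The log2 ratio of Rn45s against CTX was 2.64 (2.62 to 2.66) in MV left tumor and 2.66 (2.65 to 2.68) in TRP-1MV, with the 95% exact interval in parentheses here and below. In Remote tumor it was 0.24 (0.22 to 0.26), under the ratio that makes a call.

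**Figure D1:**
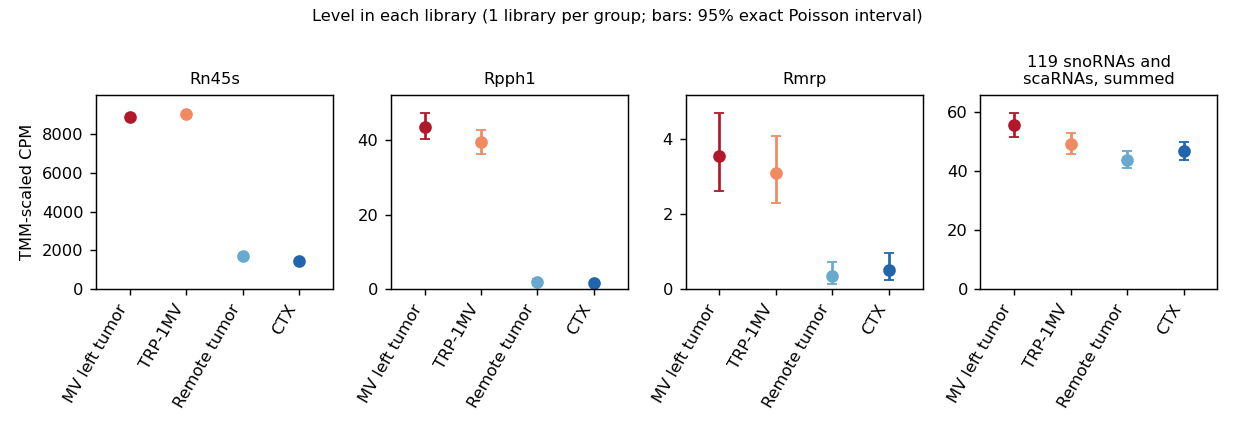
Level of Rn45s, Rpph1, Rmrp and the summed 119 snoRNAs and scaRNAs in each library, in TMM-scaled CPM on axes that start at 0, with 1 library per group and 95% exact Poisson intervals as bars. The 3 structural RNAs stand higher in MV left tumor and TRP-1MV, and the snoRNA sum lies between 43.9 and 55.7 CPM in all 4 libraries.

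Rpph1 had 590 reads in MV left tumor, 635 in TRP-1MV, 38 in Remote tumor and 29 in CTX, or 43.7, 39.4, 1.91 and 1.51 CPM. Its log2 ratio against CTX was 4.85 (4.31 to 5.44) in MV left tumor, 4.70 (4.17 to 5.29) in TRP-1MV and 0.34 (-0.40 to 1.09) in Remote tumor. Rpph1 was thus called higher in both of the first libraries and not in Remote tumor. Its annotated span overlaps an exon of Ccnb1ip1 on the same strand, so reads of both cannot be told apart there.

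Rmrp had 48 reads in MV left tumor, 50 in TRP-1MV, 7 in Remote tumor and 10 in CTX. Its log2 ratio against CTX was 2.77 (1.77 to 3.92) in MV left tumor, 2.57 (1.58 to 3.72) in TRP-1MV and -0.57 (-2.20 to 0.97) in Remote tumor. Rmrp was called higher in the same libraries as Rpph1. Rmrp has 2 entries in GENCODE M21, of which the first is the one described. That entry overlaps Ccdc107 on the opposite strand, and the strand setting of the counting is not given in the sources used here. Terc had 1 read in MV left tumor, 4 in TRP-1MV, 2 in Remote tumor and 0 in CTX, too few to compare.

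Ratios within a library do not depend on scaling. Per 100 reads of all snoRNAs and scaRNAs, Rpph1 had 78.4 reads in MV left tumor, 79.8 in TRP-1MV, 4.35 in Remote tumor and 3.23 in CTX. Rmrp had 6.37, 6.28, 0.802 and 1.11 in the same order. The reads of both thus differed relative to those of the snoRNAs, whatever the library size.

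Lars2, a mitochondrial leucyl-tRNA synthetase gene whose mouse locus holds a stretch like large-subunit ribosomal RNA, is set beside Rn45s for that reason. It had 82757 reads in MV left tumor, 94071 in TRP-1MV, 2236 in Remote tumor and 1881 in CTX. Against CTX its log2 ratio was 5.96 in MV left tumor, 5.90 in TRP-1MV and 0.20 in Remote tumor. Rn45s and Lars2 did not keep one proportion: there were 1.45 Rn45s reads per Lars2 read in MV left tumor and 1.55 in TRP-1MV, against 15.0 in Remote tumor and 14.5 in CTX. Rpph1 and Rmrp had 12.3, 12.7, 5.43 and 2.90 Rpph1 reads per Rmrp read in MV left tumor, TRP-1MV, Remote tumor and CTX. The last 2 values rest on 7 and 10 Rmrp reads. Against CTX the intervals of their log2 ratios, given above, do not overlap in MV left tumor or TRP-1MV. In MV left tumor against Remote tumor they do, at 4.52 (4.04 to 5.03) for Rpph1 and 3.34 (2.18 to 4.73) for Rmrp.

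Other short structural RNAs outside the member list were sparse. The 10 in the tables, of 20 listed, held 43 reads in MV left tumor, 35 in TRP-1MV, 13 in Remote tumor and 12 in CTX. The log2 ratio of these sums against CTX was 2.35 (1.40 to 3.41) in MV left tumor, 1.80 (0.82 to 2.88) in TRP-1MV and 0.06 (-1.19 to 1.32) in Remote tumor. Rnu11, the U11 RNA of the minor spliceosome, had 8, 8, 0 and 0 reads in the same order of libraries. Vaultrc5, a vault RNA, had 15, 5, 0 and 1. Rnu73b, a snoRNA whose symbol falls outside the member rule, did not follow this order, with 6, 12, 9 and 8. It held most of the list's reads in Remote tumor and CTX, so the sums above mix a snoRNA with other RNAs.

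snoRNAs and scaRNAs were close to level in sum. Their reads summed to 753 in MV left tumor, 796 in TRP-1MV, 873 in Remote tumor and 899 in CTX, or 55.7, 49.4, 43.9 and 46.9 CPM. The log2 ratio against CTX was 0.25 (0.11 to 0.39) in MV left tumor, 0.08 (-0.06 to 0.22) in TRP-1MV and -0.10 (-0.23 to 0.04) in Remote tumor. Under total-count scaling the first 2 were 0.49 and 0.32, and on the housekeeping scale 0.81 and 0.59. The 54 members that overlap a same-strand exon held 453, 471, 582 and 607 of the reads in MV left tumor, TRP-1MV, Remote tumor and CTX. Without them the ratios against CTX were 0.54 (0.31 to 0.78) in MV left tumor and 0.41 (0.17 to 0.64) in TRP-1MV. H/ACA and C/D snoRNAs went together, at 0.24 (0.03 to 0.45) and 0.25 (0.05 to 0.45) in MV left tumor against CTX.

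These reads were spread over few genes. The 4 snoRNAs with the most reads held 28.3% of them and the top 10 held 47.2%, and the median member had 12 reads over the 4 libraries. Of the 119, 68 had reads in all 4 libraries, 29 in some and 22 in none. Reads were found for 91 members in MV left tumor, 91 in TRP-1MV, 82 in Remote tumor and 77 in CTX. At the smallest total, 91.0, 87.6, 72.3 and 70.9 would be found by rarefaction. There were 11 members with reads only in MV left tumor or TRP-1MV and 0 with reads only in Remote tumor or CTX. Detection over all genes split the same way. Of the 25239 genes, 17232 had reads in MV left tumor, 17436 in TRP-1MV, 15951 in Remote tumor and 15907 in CTX. How many of all genes had reads only on 1 side of that split was not counted. The 11 and 0 above thus cannot be read as particular to these RNAs. A count of 0 in CTX allows up to 0.156 CPM (3 counts), and in MV left tumor up to 0.222 CPM.

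Snora65 and Snora28 led, with 61, 63, 78 and 90 reads and 64, 52, 59 and 73 reads in MV left tumor, TRP-1MV, Remote tumor and CTX. Their log2 ratios in MV left tumor against CTX were -0.06 (-0.55 to 0.43) and 0.32 (-0.19 to 0.82). Neither was called in any of the 6 comparisons. Snord104, which had no annotated host, had 42, 36, 84 and 70 reads, and Snord96a in Rack1 had 37, 32, 54 and 45. Of the rest of the 10 snoRNAs with the most reads, Snord16a in Rpl4 had 16, 19, 38 and 36 reads, Snora81 in Eif4a2 21, 36, 28 and 24, and Snord22 in Snhg1 20, 18, 24 and 40. None of these 5 was called in any comparison either. Snora65, Snora28, Snord96a, Snord16a, Snora81 and Snord22 overlap a same-strand exon of their hosts, so reads of both cannot be told apart there.

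Of the 123 members, 23 passed the minimum of 10 reads, so the counts that follow cover those alone. The minimum is a mean over the 4 libraries, so a member could pass through the libraries where it was high. Among these, Rmrp and Snord55 had 10 reads or fewer in both Remote tumor and CTX. Snord12 and Snord49a had 10 reads or fewer in both MV left tumor and TRP-1MV. In MV left tumor against CTX, 5 of the 23 were called higher and 1 lower, where 29.2% of all genes compared were called (18.1% higher and 11.1% lower). In TRP-1MV against CTX 6 were higher and 2 lower, where 30.2% of all genes were called (18.5% and 11.7%). In MV left tumor against Remote tumor 6 were higher and 1 lower, beside 30.3% of all genes (18.6% and 11.7%). In TRP-1MV against Remote tumor 7 were higher and 3 lower, beside 31.0% (18.8% and 12.1%). In Remote tumor against CTX 0 members were called, beside 0.704% of all genes (0.457% and 0.247%). In TRP-1MV against MV left tumor it was again 0, beside 0.779% (0.562% and 0.217%). Members called came to 26.1%, 34.8%, 30.4% and 43.5% of the 23 in the first 4 of these comparisons, and Rn45s, Rpph1 and Rmrp were called in each of them. Of the 20 snoRNAs alone, 3, 5, 4 and 7 were called in the same order, below the share of all genes in the first 3 and above it in the last. Whether these shares differ from those of all genes was not tested. The low reads of most snoRNAs also limited which ratios could be called. Among the 20 snoRNAs past the minimum the median log2 ratio in MV left tumor against CTX was 0.23, against -0.05 over all genes.

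**Figure D2:**
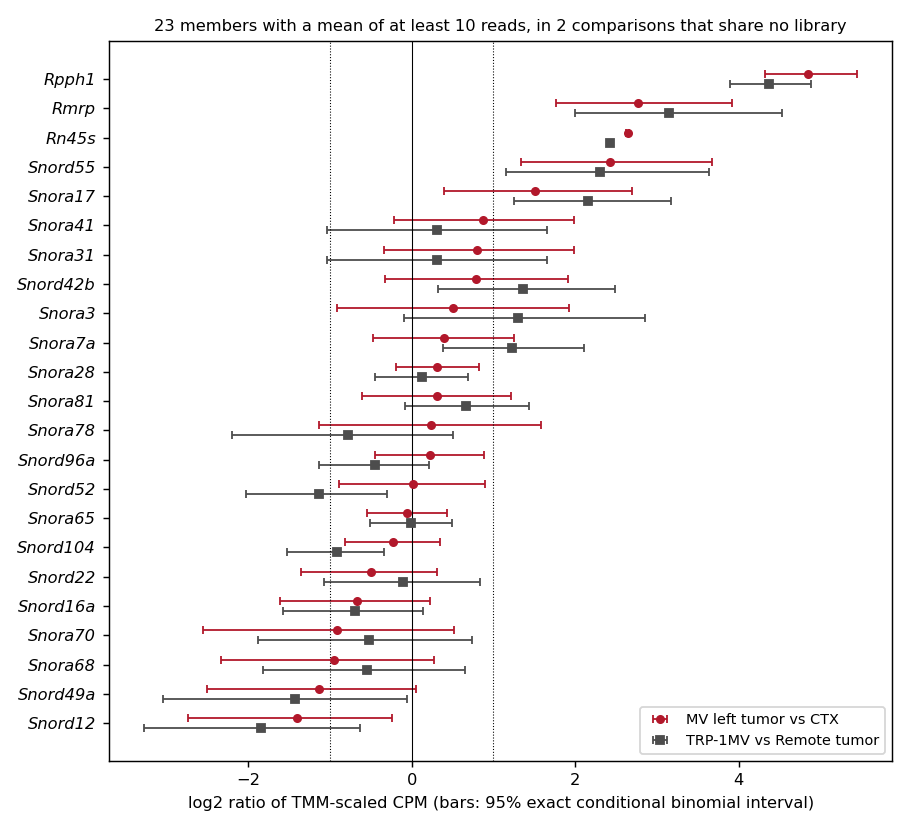
log2 ratio of the 23 members with a mean of at least 10 reads, for MV left tumor against CTX (circles) and TRP-1MV against Remote tumor (squares), with 95% exact intervals and dotted lines at a ratio of 2. Rpph1, Rmrp, Rn45s, Snord55 and Snora17 lie to the right in both, Snord12 and Snord49a to the left, and intervals of most others include 0.

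Snord55 passed the minimum only through its reads in MV left tumor and TRP-1MV. It had the highest ratio of the 20 snoRNAs in MV left tumor against CTX. It had 34 reads in MV left tumor, 32 in TRP-1MV, 8 in Remote tumor and 9 in CTX. Its log2 ratio against CTX was 2.42 (1.33 to 3.67) in MV left tumor, 2.08 (0.98 to 3.33) in TRP-1MV and -0.22 (-1.80 to 1.32) in Remote tumor. It was called higher in MV left tumor and in TRP-1MV, and not in Remote tumor.

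Snora17 and Snora43, both in Snhg7, differed in opposite directions. Snora17 had 22 reads in MV left tumor, 47 in TRP-1MV, 13 in Remote tumor and 11 in CTX, and was called higher in MV left tumor at 1.50 (0.40 to 2.70) and in TRP-1MV at 2.35 (1.38 to 3.44), both against CTX. Snora43, under the minimum, had 2, 2, 12 and 14 reads, with log2 ratios of -2.30 (-5.48 to -0.18) and -2.56 (-5.74 to -0.43). Together they had 24, 49, 25 and 25 reads. The host Snhg7 was not called, at 0.36 (-0.01 to 0.72) and 0.13 (-0.24 to 0.49). GENCODE M21 holds 2 entries named Snora43, and the position, host and sequence given are those of the first. Whether all Snora43 reads come from that locus is not known. The longest stretch the transcripts of Snora17 and Snora43 share is 14 bases, tttgtagcctgaca, which ends in the ACA. How reads that map to several places were counted is not given in the sources used here.

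Snord12 was lower, and its host Zfas1 higher, in MV left tumor than in CTX. Snord12 had 8 reads in MV left tumor, 7 in TRP-1MV, 31 in Remote tumor and 30 in CTX, with log2 ratios of -1.40 (-2.74 to -0.24) and -1.85 (-3.28 to -0.63) against CTX. Zfas1 was called higher in MV left tumor at 1.14 (0.99 to 1.29) and reached 0.97 (0.82 to 1.12) in TRP-1MV. The annotated span of Snord12 overlaps an exon of Zfas1. On total counts and on the housekeeping scale the call of Snord12 in MV left tumor against CTX was lost, at -1.16 and -0.84, while the one in TRP-1MV against CTX held under all 5 other scalings.

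Snord49a had 8 reads in MV left tumor, 6 in TRP-1MV, 20 in Remote tumor and 25 in CTX. It was called lower in TRP-1MV against CTX at -1.81 (-3.38 to -0.49), a call lost on the housekeeping scale at -1.29, and in MV left tumor its ratio was -1.14 (-2.50 to 0.05). Its noncoding host 2410006H16Rik stood at 0.55 and 0.70 in those comparisons and was not called. The 3 members in that host, Snord49a, Snord49b and Snord65, summed to 17, 14, 29 and 45 reads. In TRP-1MV against CTX their sum had a log2 ratio of -1.43 (-2.41 to -0.54).

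Snord42b, in the ribosomal protein gene Rpl23a, had 17 reads in MV left tumor, 25 in TRP-1MV, 12 in Remote tumor and 14 in CTX. It was called higher in TRP-1MV at 1.09 (0.09 to 2.15) against CTX and 1.36 (0.32 to 2.49) against Remote tumor. With Snord4a and Snord42a, the 3 members in Rpl23a summed to 28, 41, 17 and 22 reads, or 1.15 (0.37 to 1.97) in TRP-1MV against CTX, beside -0.39 for Rpl23a itself. Snora7a, in Rpl32, had 24, 36, 19 and 26 reads and was called only in TRP-1MV against Remote tumor, at 1.23 (0.39 to 2.11). Snora41, in Eef1b2, had 18, 11, 11 and 14 reads and was called only in MV left tumor against Remote tumor, at 1.27 (0.11 to 2.50). Snord52, in 1110038B12Rik, had 20, 17, 46 and 28 reads and was called lower only in TRP-1MV against Remote tumor, at -1.13 (-2.03 to -0.30), a call lost on total counts and on the housekeeping scale at -0.88 and -0.55. Snord42b, Snora7a and Snord52 also overlap a same-strand exon of their hosts. Snord4a and Snord42a overlap an exon of Tlcd1 on the opposite strand, and the strand setting is not given.

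MV left tumor against CTX and TRP-1MV against Remote tumor share no library, although MV left tumor and Remote tumor may share mice. Across the 20 snoRNAs compared, 17 had the same sign in both, with Pearson's r of 0.85 and Spearman's rho of 0.85 over genes. Of the 3 snoRNAs called in the first comparison and the 7 in the second, 3 were called the same way in both: Snord55, Snora17 and Snord12. That is 15.0% of the 20, beside 26.3% of all 13357 genes called the same way in both. Snord55 and Snord12 passed the minimum only through the libraries where they were high. Over all genes 92.8% had the same sign, against 85.0% of the snoRNAs, with r of 0.97 and rho of 0.96, all above the values for the snoRNAs.

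Among members under the minimum, several had low counts that differed along the same split. Snord47, in Gas5, had 2 reads in MV left tumor, 3 in TRP-1MV, 13 in Remote tumor and 17 in CTX, with a log2 ratio of -2.58 (-5.74 to -0.51) in MV left tumor against CTX. Snord37, in Eef2, had 7, 6, 1 and 0 reads. Snora21, in Rpl23, had 10, 9, 2 and 3 reads, at 2.24 (0.28 to 4.74) in MV left tumor against CTX. These were picked after their values were seen and are given as values only.

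The scaRNAs summed to 14 reads in MV left tumor, 12 in TRP-1MV, 14 in Remote tumor and 14 in CTX. Scarna13, in Snhg10, held most of those in Remote tumor and CTX, with 3, 1, 13 and 11 reads. The other 8 scaRNAs had 11, 11, 1 and 3 reads, a split made after the values were seen. Scarna10 had 4, 6, 0 and 2 of these. As Scarna13 was set apart after its reads were seen, the opposite directions within a level sum follow from the split. They are given as values only.

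Of the snoRNAs known for precursor rRNA cleavage, Snord22 held most reads and the other members had at most 5 in any library. Snord118, the U8 RNA, had 3 reads in MV left tumor, 5 in TRP-1MV, 0 in Remote tumor and 0 in CTX. Snord13 had 0 reads in all 4. Of the U14 RNAs, Snord14c had 5, 1, 4 and 3 reads, and Snord14a and Snord14d had 0 reads throughout. Rnu3a, the U3 RNA, had 7, 2, 1 and 0 reads. With Snord22, the cleavage snoRNAs among the members summed to 28, 24, 28 and 43 reads, most of them from Snord22.

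Sums were also taken by the kind of host, since most snoRNAs are cut from introns. An annotated host on the same strand was found for 112 of the 119 snoRNAs and scaRNAs, in 82 host genes. The 84 members in protein-coding hosts summed to 578 reads in MV left tumor, 601 in TRP-1MV, 542 in Remote tumor and 587 in CTX. The 28 in noncoding hosts summed to 124, 141, 239 and 235. A host was classed as noncoding here and below by its annotated gene type. The class thus holds Snora15 in Cct6a, annotated as a processed transcript although Cct6a encodes a chaperonin subunit. Sums without that member and host were not taken. Within a library, which needs no scaling, there were 4.66 reads in protein-coding hosts per read in noncoding hosts in MV left tumor and 4.26 in TRP-1MV, against 2.27 in Remote tumor and 2.50 in CTX. This split and the next were made after the values were seen.

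Members of protein-coding hosts were split by whether they overlap an annotated exon on the same strand (the plot of summed reads by annotated place). Those without such overlap are said here and below to lie in introns alone. Exons on the opposite strand were not considered, and Snord4a and Snord42a overlap one of Tlcd1. The 46 in introns alone had 195 reads in MV left tumor, 198 in TRP-1MV, 112 in Remote tumor and 121 in CTX, with log2 ratios against CTX of 1.19 (0.86 to 1.53), 0.96 (0.63 to 1.30) and -0.17 (-0.55 to 0.22). Without Snord55, which held the most of these reads, the first 2 were 1.03 and 0.82. The 38 that overlap an exon had 383, 403, 430 and 466 reads, with ratios of 0.22 (0.02 to 0.42), 0.04 (-0.15 to 0.24) and -0.17 (-0.36 to 0.02). The 40 host genes of the intron-only members, summed, had a log2 ratio of -0.14 in MV left tumor and -0.16 in TRP-1MV.

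**Figure D3:**
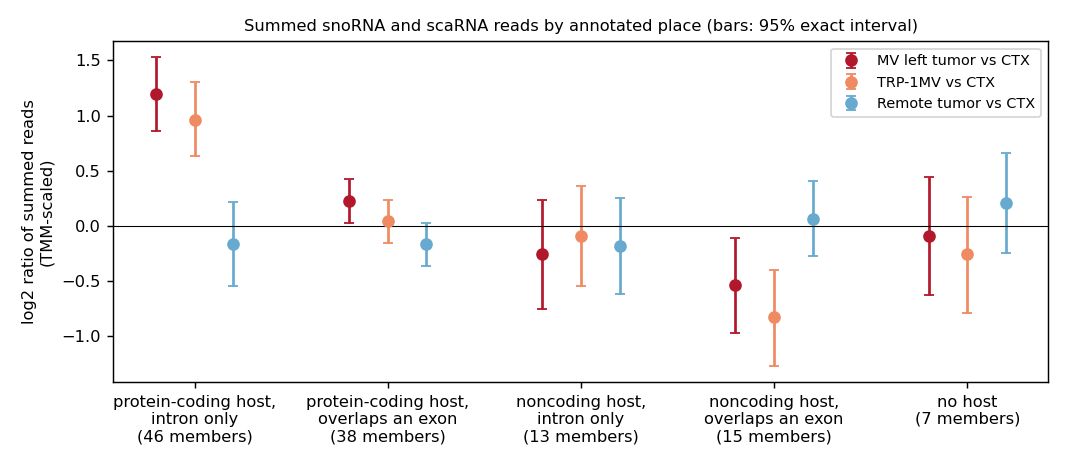
log2 ratio against CTX of summed snoRNA and scaRNA reads by annotated place, for MV left tumor, TRP-1MV and Remote tumor, with 95% exact intervals as bars. Members of protein-coding hosts without same-strand exon overlap stand at 1.19 and 0.96 in MV left tumor and TRP-1MV. Those of noncoding hosts without such overlap stand at -0.26 and -0.09.

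Members in noncoding hosts had log2 ratios against CTX of -0.42 (-0.74 to -0.10) in MV left tumor, -0.49 (-0.80 to -0.18) in TRP-1MV and -0.03 (-0.30 to 0.24) in Remote tumor. The sign of the first 2 turned on the housekeeping scale, to 0.14 and 0.03. The 13 in introns alone had 56 reads in MV left tumor, 75 in TRP-1MV, 87 in Remote tumor and 95 in CTX, with ratios against CTX of -0.26 (-0.76 to 0.23), -0.09 (-0.55 to 0.36) and -0.18 (-0.62 to 0.25), intervals that all include 0. The 15 that overlap an exon, Snora15 in Cct6a among them, had 68, 66, 152 and 140 reads. Their ratios were -0.54 (-0.98 to -0.11), -0.83 (-1.28 to -0.40) and 0.07 (-0.28 to 0.41). The 32 members in ribosomal protein genes had 295, 331, 282 and 318 reads, with ratios of 0.40 (0.16 to 0.63), 0.31 (0.08 to 0.54) and -0.23 (-0.46 to 0.01). Their 23 host genes had a median of -0.45 in MV left tumor and -0.42 in TRP-1MV, and 0 of 23 were called by the ratio rule in any of these 3 comparisons. Of all genes compared, 29.2%, 30.2% and 0.704% were called in MV left tumor, TRP-1MV and Remote tumor against CTX. The 4 members in Rpl13a summed to 15, 26, 19 and 13 reads, against 9276, 10530, 16565 and 14295 reads of Rpl13a.

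Noncoding host genes were also followed themselves. Of the 18 on the list with enough reads, 4 were higher and 0 lower in MV left tumor against CTX, a count close to the 18.1% of all genes called higher there, with a median log2 ratio of 0.48 against -0.05 over all genes. In TRP-1MV the count was also 4 and 0, beside 18.5% and 11.7% of all genes. In Remote tumor it was 0 and 0, beside 0.457% and 0.247%. Summed, the 18 hosts of the 28 members classed as noncoding, Cct6a among them, had log2 ratios of -0.09 in MV left tumor and -0.19 in TRP-1MV. None of these sums was called. Snhg12 had the highest ratio, with 474 reads in MV left tumor, 521 in TRP-1MV, 211 in Remote tumor and 178 in CTX, or 1.92 (1.67 to 2.17) in MV left tumor. The 4 members inside it, Snora61, Snora44, Snord99 and Snora16a, summed to 14, 17, 34 and 22 reads, or -0.15 (-1.23 to 0.88). Snhg16 was at 1.33, while its 3 members held only 3, 3, 2 and 2 reads. Dancr was lowest at -0.65 and not called.

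**Figure D4:**
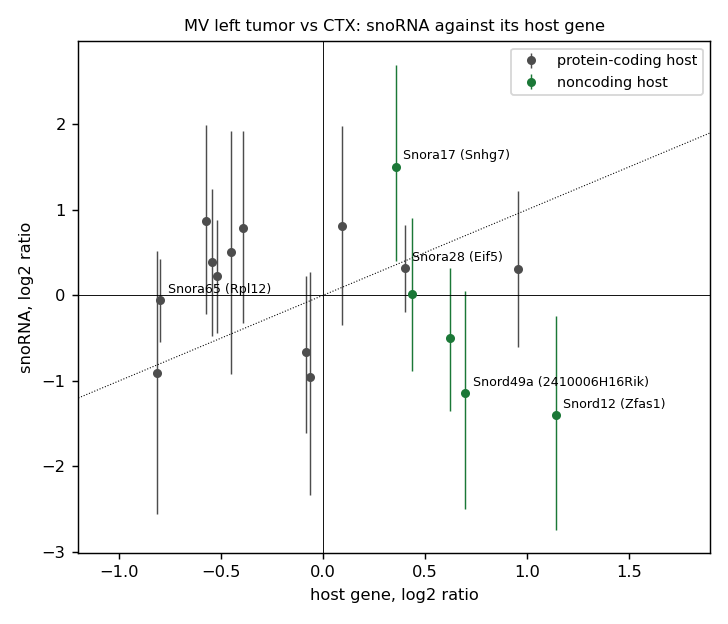
log2 ratio in MV left tumor against CTX of 17 of the 18 snoRNAs that could be paired (vertical axis, 95% exact intervals) and of their host genes (horizontal axis), with the line of equality dotted. Snord12 lies far below the line and Snora17 above it.

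Over the 18 pairs of snoRNA and host with enough reads, Pearson's r between the ratios in MV left tumor and CTX was -0.24 and Spearman's rho -0.25. The points share both libraries, and snoRNA counts were sparse, so this is a description only. In TRP-1MV against CTX r was -0.27. Ratios of snoRNAs were above those of their hosts in 9 of 18 pairs in each of these comparisons.

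Genes of the proteins that bind or make these RNAs were mostly uncalled, as were most genes. Over all genes compared, 29.2% were called in MV left tumor against CTX (18.1% higher and 11.1% lower). In TRP-1MV against CTX it was 30.2% (18.5% and 11.7%). These shares stand beside the counts of every protein list below, and whether the counts differ from them was not tested. Of 11 box C/D particle proteins, 0 were higher and 2 lower in MV left tumor against CTX: Ruvbl1 and Ruvbl2, ATPases that help assemble the particle, at -1.21 and -1.04. Nop58, a core protein, was highest at 0.65 and not called. Of 7 H/ACA particle proteins 0 were higher and 1 lower, the core protein Nhp2 at -1.32, and Naf1 was highest at -0.06. In TRP-1MV the counts were 0 and 1 for C/D proteins and 0 and 2 for H/ACA proteins.

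Genes of RNase P and RNase MRP proteins were mostly uncalled, while Rpph1 and Rmrp were called higher. Whether the mRNAs and these RNAs are linked was not tested. Of 9 compared, 0 were higher and 1 lower in MV left tumor against CTX, Rpp40 at -1.08, with Pop5 highest at 0.21 and a list median of -0.52. In TRP-1MV Rpp40 was again the only call, at -1.64. Of 27 RNA polymerase III genes, whose enzyme makes Rpph1 and Rmrp, 1 was higher and 2 lower. Bdp1, a subunit of the initiation factor TFIIIB, had 1210 reads in MV left tumor, 1334 in TRP-1MV, 458 in Remote tumor and 575 in CTX, or 1.58 in MV left tumor. Polr3g, an alternative polymerase subunit, was lowest at -1.10.

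RNA polymerase I and precursor rRNA processing genes were also mostly uncalled. Their link to the reads of Rn45s, which may come from precursor or mature RNA, was not tested. Of 27, 1 was higher and 0 lower in MV left tumor against CTX, Taf1a at 1.03, a subunit of the selectivity factor SL1. Polr1b was lowest, at -0.82 there and at -1.08 in TRP-1MV, where 1 was higher and 1 lower. Of 7 telomerase and Cajal body proteins, Wrap53, which brings scaRNAs and Terc to Cajal bodies, was higher at 1.11 and Coil, the Cajal body scaffold, lower at -1.02. Of 7 proteins of the 7SK particle, Ccnt1 was the only call at 1.31, and Hexim2 was lowest at -0.85. In Remote tumor against CTX 0 genes of these protein lists were called, beside 0.704% of all genes, with list medians between -0.03 and 0.10.

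Of 4 long noncoding RNAs held in the nucleus that could be compared, 1 was called in MV left tumor against CTX, beside 29.2% of all genes. Xist was higher, with 504 reads in MV left tumor, 553 in TRP-1MV, 48 in Remote tumor and 31 in CTX. Malat1 was at 0.52 and Neat1, the lowest, at -0.54 in MV left tumor against CTX, neither of them called.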

How the data were processed

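The authors deposited raw read counts per gene symbol, as whole numbers for 25239 genes in each of 4 libraries. The submitters' processing notes name HISAT2, featureCounts and mm10, without versions. Whether counting used strand, and how multi-mapped or multi-overlapping reads were handled, is not given in the sources used, so reads on snoRNAs that overlap host exons, and on paralogs, are uncertain. Counts were scaled with TMM factors (edgeR 4.0.16, R 4.3.3), with DESeq2 1.42.0 size factors among the alternatives. Ratios have 95% exact conditional binomial (Clopper-Pearson) intervals and sums exact Poisson intervals (scipy 1.17.1, numpy 2.4.6, pandas 2.3.3, Python 3.11.15; figures with matplotlib 3.10.9). Reads have no molecular identifiers, so intervals and the floor of 3 counts used for 0 reads cover counting error only. No ratio was taken where both libraries had 3 reads or fewer. The calling rule was tested on simulated data. These held counting error alone, so they say nothing of variation between animals or library preparations.

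Positions, sequences and hosts came from GENCODE M21, in which 122 of the 123 members were found; Rn45s had no entry. Snora43, Snora16a and Rmrp had 2 entries each, and the first was used. For 6 members the host came from RefSeq spans of the same build. A host is the gene on the same strand that encloses the member. Detection at the smallest total was computed by exact rarefaction.

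Named genes were the structural RNAs, the 10 snoRNAs with the most reads, every called member, the snoRNAs of precursor rRNA cleavage, hosts of named members, the genes with the highest and lowest ratio in each list, and Lars2. Members and lists were chosen with earlier results of these data known. The replication-dependent histone list was not used here. The host gene of 1 member is not reported here, and its pair is left out of the plot of snoRNAs against hosts. Alternatives were 5 other scalings, minimum counts of none or of a mean of 50 reads, stricter calls (ratio 4, or an interval beyond a ratio of 2), libraries thinned to the smallest depth, and leaving out exon-overlapping members or the member with the most reads. The splits by host, by exon overlap and without Scarna13 were added after seeing the data.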

Additional observations from a re-analysis of the deposited data

How the results depend on the processing

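No paired analysis was possible because the groups held a single library each, and no replicate could be left out. Relative to TMM, total counts shifted all log2 ratios of MV left tumor against CTX by 0.24 and the housekeeping scale by 0.56. In order, the comparisons below are MV left tumor against CTX, TRP-1MV against CTX, MV left tumor against Remote tumor and TRP-1MV against Remote tumor. The summed snoRNA ratio, 0.25, 0.08, 0.35 and 0.17, turned to 0.49, 0.32, 0.60 and 0.42 with total counts, to 0.81, 0.59, 0.97 and 0.75 if housekeeping genes set the scale, and to 0.54, 0.41, 0.60 and 0.46 without exon-overlapping members. Members called, 6, 8, 7 and 10, became 13, 13, 15 and 21 with no minimum count and 2 in each with a mean of at least 50 reads, where fewer members were compared. With a ratio of at least 4 they were 5, 4 and 5 in the last 3, and with an interval excluding a ratio of 2 they were 4, 4 and 5. The housekeeping scale gave 11 in MV left tumor against Remote tumor, and leaving out exon-overlapping members gave 6 in TRP-1MV against Remote tumor. All genes called, 3899, 4035, 4050 and 4136, became 1683, 1737, 1654 and 1708 with a ratio of at least 4. In Remote tumor against CTX, 1 member was called with no minimum count and 1 after thinning, against 0. All genes called there, 94, became 144 with no minimum, 40 at a mean of 50, 20 at a ratio of 4 and 7 with the interval excluding 2. In TRP-1MV against MV left tumor, 104 became 194, 13, 6 and 1 under the same alternatives. The 17 snoRNAs with the same sign in both comparisons became 3 at a mean of 50, where fewer could be compared. No sum over all members and no count turned direction. Rn45s, Rpph1 and Rmrp kept their calls in MV left tumor and TRP-1MV against CTX and against Remote tumor under all 5 other scalings. At a mean of 50 reads only 2 snoRNA and host pairs were left, so no correlation was taken. Depth limits the snoRNAs: the median member had 12 reads over the 4 libraries, so most single ratios have wide intervals.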
